A study of Rattus norvegicus with 32 samples.

Results

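Axon guidance genes in the liver sinusoidal endothelial cells (LSECs) of rats were taken as those whose symbol belongs to 1 of 8 families, namely the semaphorins Sema3 to Sema7, the plexins, the ephrins, the Eph receptors, the Slits, the Robo receptors, the netrins and the Unc5 receptors. The rule used symbols alone and no measured value, and it found 65 of the 32623 genes in the count tables. They were 20 semaphorins, 9 plexins, 8 ephrins, 14 Eph receptors, 3 Slits, 3 Robo receptors, 4 netrins and 4 Unc5 receptors.

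These families were first known for steering growing axons, and endothelial cells use the same ligands and receptors when vessels sprout, branch and sort into arteries and veins. Class 3 semaphorins are secreted and most of them bind a neuropilin together with a plexin, whereas most other semaphorins are held in the membrane and bind plexins directly. Ephrins stay on the cell surface and signal through Eph kinases of a touching cell, Slits are secreted ligands of Robo receptors, and netrins bind Dcc, neogenin and Unc5 receptors.

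LSECs, the fenestrated endothelium of the hepatic sinusoid, were isolated by density gradient centrifugation of digested livers, with no sorting by a surface marker. Healthy Wistar Han rats (6 libraries) were compared with Wistar Han rats that inhaled carbon tetrachloride (CCl4), a hepatotoxin, for 2 weeks (acute injury, 5 libraries), 6 weeks (fibrosis, 5 libraries) or 12 to 14 weeks (cirrhosis, 6 libraries). The study's methods give male rats, phenobarbital in the drinking water in the CCl4 model, and cells taken some days after the last dose of toxicant. A separate experiment with thioacetamide (TAA), another hepatotoxin, has 5 libraries labelled control (T1 to T5) and 5 labelled TAA control (T10, T12, T13, T14 and T15). The strain of these 10 libraries is Wistar Han in the labels and Sprague-Dawley in the study's design. The labels do not settle which of these groups received TAA, so each difference is given as T10 to T15 minus T1 to T5.

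Libraries held 25646501 to 46464271 counts. Levels are CPM, the usual counts relative to a library's effective total, with TMM factors set over the 22 CCl4 libraries and, separately, over the 10 TAA libraries. They are not divided by gene length, so a gene was compared across groups and never with another gene. The summed level of 15 LSEC markers was 18378 to 34350 CPM in healthy, 4463 to 5263 in acute, 3187 to 4229 in fibrosis and 17621 to 22511 in cirrhosis libraries, and none of these markers was at 0 in any group. Of the 15 markers 13 were lower in acute injury and 14 in fibrosis than in healthy LSECs, whereas the mean level of Cdh5, the endothelial cadherin, was 1294, 1597, 1040.0 and 1506 CPM in healthy, acute, fibrosis and cirrhosis libraries. The hepatocyte list summed to 1374 to 28671 CPM in healthy, 157 to 964 in acute, 1353 to 5305 in fibrosis and 3102 to 14877 in cirrhosis libraries, and the macrophage list to 609 to 4176, 146 to 457, 60.9 to 344 and 1299 to 3624. The stellate cell and fibroblast list summed to 299 to 799.8 CPM in healthy, 1321 to 2137 in acute, 1365 to 1848 in fibrosis and 639 to 1971 in cirrhosis libraries. Most of the acute and fibrosis sums was Reln, with means of 1678 and 1378 CPM. Of 11 genes tested 1 was higher and 6 lower in acute injury, and 4 were higher and 4 lower in fibrosis. In cirrhosis 9 of 12 were higher and 0 lower. Ccl21, a lymphatic endothelial chemokine, averaged 3.84 CPM in healthy and 1185 CPM in cirrhosis libraries, and 1079.6 CPM in T1 to T5 against 3.51 CPM in T10 to T15. The stellate list also stood higher in T1 to T5 (2136 to 5353 CPM) than in T10 to T15 (347 to 543 CPM). In these bulk libraries fewer cells of a type and less RNA per cell cannot be told apart, and the part of these cells in the results below was not tested.

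Axon guidance genes mostly fell in acute injury and fibrosis, and in cirrhosis some stayed lower and others were higher than in healthy LSECs. Their share of all counts was 0.531% to 0.659% in healthy libraries (median 0.620%), 0.240% to 0.292% in acute, 0.237% to 0.267% in fibrosis and 0.388% to 0.473% in cirrhosis libraries. A gene was called where the limma-voom p-value, adjusted by Benjamini-Hochberg over all genes tested, was under 0.05 and the fold was above 1.5. With acute injury 33 of the 47 genes tested fell and 6 rose, which is 83.0% called, whereas 73.4% of all 14317 genes tested were called, 37.9% lower and 35.5% higher. The median log2 fold change was -2.25 over these 47 genes and -0.09 over all genes. In fibrosis 30 of 51 fell and 10 rose, or 78.4%, beside 70.2% of all genes (34.9% lower and 35.3% higher). Thus the share of genes called was close to that of the transcriptome at both stages, and the split between directions was not.

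In cirrhosis 17 of 53 were higher and 15 lower than in healthy LSECs, or 60.4%, beside 51.8% of all genes (27.1% higher and 24.7% lower). With scaling by library size in place of TMM, which moved the median of all genes in this comparison by 0.34 on the log2 scale, the split was 22 higher and 10 lower. The same scaling moved the median of all genes by 0.41 in acute injury and 0.40 in fibrosis. From fibrosis to cirrhosis 37 of 53 rose and 6 fell, beside 34.3% of all genes higher and 29.5% lower (63.8% called). From acute injury to fibrosis 14 of 48 rose and 0 fell, beside 10.2% of all genes higher and 0.732% lower (11% called). For this last comparison edgeR, DESeq2 and limma-voom at an unadjusted p-value under 0.05 also called 0 lower, with the same count minimum. Some genes reached the count minimum only through the group where they were higher, and these were 2 of the 6 higher and 9 of the 33 lower calls in acute injury, 5 of 10 and 3 of 30 in fibrosis, and 9 of 17 (Epha3, Ephb1, Robo2, Sema3a, Sema3c, Sema3d, Sema3e, Sema5a and Unc5c) and 0 of 15 in cirrhosis. From acute injury to fibrosis such genes made up 6 of the 14 higher calls, and from fibrosis to cirrhosis 6 of the 37 higher and 1 of the 6 lower calls. Such genes entered the test through being high in 1 group and could hardly be called the other way, so these counts are a description. In the text below, no fold or test is given for an axon guidance gene in such a comparison. Each comparison with healthy LSECs used the same 6 healthy libraries, so they are not independent of one another.

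**Figure D1:**
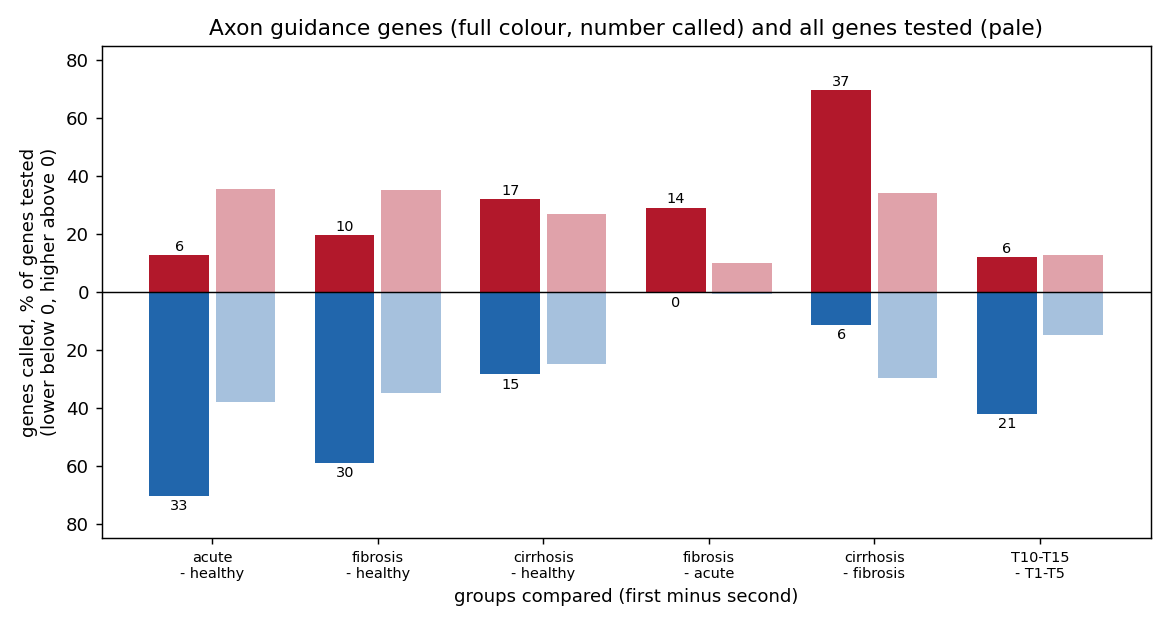
Percentage of genes called higher (above 0) and lower (below 0) in each comparison, for the axon guidance genes tested (full colour, with the number called) and for all genes tested (pale). The genes called lower outnumber those called higher in acute injury (33 and 6) and fibrosis (30 and 10), and the split from fibrosis to cirrhosis is the opposite (37 higher and 6 lower). Some of these genes reached the count minimum only through the group where they were higher, so the figure is a description.

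Acute injury against healthy and cirrhosis against fibrosis have no library in common. Of the 33 axon guidance genes lower in acute injury, 30 were higher in cirrhosis than in fibrosis, and the other 3 were not called. That is 90.9%, beside 72.7% of all 5370 genes lower in acute injury and tested in both comparisons. Of the 6 genes that rose with acute injury, 3 were lower in cirrhosis than in fibrosis (Plxna1, Plxna2 and Sema3c), or 50%, beside 67.1% of all 5051 genes higher in acute injury. Of the 33, 9 reached the count minimum in acute injury against healthy only through the healthy libraries. Among them Efna2, Sema5b and Sema6c also reached it in cirrhosis against fibrosis only through the cirrhosis libraries. Of the 6, Sema3c and Sema3e reached it only through the acute libraries. Such genes could hardly be called the other way in those comparisons, so these counts are a description and carry no test.

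Libraries of both groups lay apart, with no overlap, for 34 of the 47 genes in acute injury against healthy (60% of all genes), 30 of 51 in fibrosis (58.7%) and 17 of 53 in cirrhosis (27.2%). They lay apart for 9 of 48 in fibrosis against acute injury (17.2%) and for 36 of 53 in cirrhosis against fibrosis (63.3%).

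Promoter sequences are shown for 4 genes on which the results turn, the receptors Plxnd1 and Ephb4, which fell early, and Sema3d and Robo2, which were highest in cirrhosis. They were chosen after their values were seen. Each is the 250 bases before the gene start in RefSeq on GRCr8, matched by symbol, whereas the reads had been mapped to Rnor_6.0. Capitals mark matches on either strand to 1 of 4 motifs. The core motif of ETS factors was searched as CCGGAA and the motif of Kruppel-like factors as CCACCC. The motif of RBPJ, the Notch effector, was searched as TGGGAA and that of GATA factors as AGATAA.
Plxnd1 (GRCr8 chr4:150715188-150715437, minus strand): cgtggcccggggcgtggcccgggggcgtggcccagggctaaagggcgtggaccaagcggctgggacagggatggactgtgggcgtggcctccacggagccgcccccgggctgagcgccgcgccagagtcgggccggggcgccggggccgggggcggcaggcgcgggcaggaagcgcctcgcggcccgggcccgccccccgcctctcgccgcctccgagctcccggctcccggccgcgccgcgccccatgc
Ephb4 (GRCr8 chr12:24988389-24988638, minus strand): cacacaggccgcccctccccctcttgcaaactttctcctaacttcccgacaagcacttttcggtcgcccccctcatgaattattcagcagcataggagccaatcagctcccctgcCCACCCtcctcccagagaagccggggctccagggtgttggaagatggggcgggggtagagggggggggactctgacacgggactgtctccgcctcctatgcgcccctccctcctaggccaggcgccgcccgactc
Sema3d (GRCr8 chr4:23460972-23461221, minus strand): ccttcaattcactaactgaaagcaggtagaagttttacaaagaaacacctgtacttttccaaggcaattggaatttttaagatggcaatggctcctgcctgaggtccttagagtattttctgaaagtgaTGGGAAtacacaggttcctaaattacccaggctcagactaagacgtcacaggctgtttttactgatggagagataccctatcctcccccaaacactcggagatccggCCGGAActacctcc
Robo2 (GRCr8 chr11:26526413-26526662, minus strand): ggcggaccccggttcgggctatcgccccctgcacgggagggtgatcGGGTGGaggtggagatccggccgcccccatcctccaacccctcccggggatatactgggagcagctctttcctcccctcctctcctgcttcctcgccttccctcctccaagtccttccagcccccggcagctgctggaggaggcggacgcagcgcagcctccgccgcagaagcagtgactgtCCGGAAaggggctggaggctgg
The Plxnd1 window held none of the motifs and was 83.2% G or C, and that of Ephb4 held 1 Kruppel-like motif at 64.4% G or C. The Sema3d window, with 44.8% G or C, held 1 ETS core and 1 RBPJ motif, and the Robo2 window held 1 ETS core and 1 Kruppel-like motif. Of the 65 genes 50 had a sequence in the table. The Kruppel-like motif occurred in 24 of these 50 windows (48%) and in 15 of the 25 of genes lower in acute injury (60%), beside 26.6% of all 27457 windows. The median G or C content was 64% in the 50 windows and 52% in all windows, and the part of base composition in these shares was not tested. The ETS core occurred in 3 of 50 windows (6%), the RBPJ motif in 11 (22%) and the GATA motif in 4 (8%), beside 13.4%, 21.6% and 10% of all windows. A match here is a match of letters and no evidence of binding.

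Semaphorins included the largest called fall against healthy LSECs at each stage, namely Sema3f in acute injury and Sema6b in fibrosis and cirrhosis. In acute injury 12 of 18 tested were lower and 3 higher, in fibrosis 11 of 20 lower and 6 higher, and in cirrhosis 3 of 20 lower and 7 higher. That is 83.3%, 85% and 50% called, beside 73.4%, 70.2% and 51.8% of all genes. Of the higher calls, Sema3c and Sema3e in acute injury reached the count minimum only through the group where they were high. So did these genes, Sema3a and Sema5a in fibrosis, and these, Sema3a, Sema5a and Sema3d in cirrhosis. Of the lower calls, Sema3b, Sema4f, Sema5b and Sema6c in acute injury reached it only through the healthy libraries, as did Sema5b and Sema6c in fibrosis. The class 6 members, which are transmembrane ligands of A-type plexins, did not move together. Sema6b (ENSRNOG00000045998) had lowest, median and highest levels of 387, 1114 and 1831 CPM in healthy and 207, 298 and 361 CPM in cirrhosis libraries. The 5 acute libraries held 70.7, 75.2, 58.4, 81.8 and 60.6 CPM and the 5 fibrosis libraries 47.1, 48.2, 63.7, 44 and 41.4 CPM. Every CCl4 library thus lay below every healthy library, with the fibrosis libraries among the lowest. The level of Sema6b was 14-fold lower (log2 fold change -3.81 ± 0.31 SE, limma-voom adjusted p = 3.52e-07) in acute injury, 19.5-fold lower (log2 fold change -4.29 ± 0.32 SE, limma-voom adjusted p = 2.24e-07) in fibrosis and 3.49-fold lower (log2 fold change -1.80 ± 0.31 SE, limma-voom adjusted p = 0.000515) in cirrhosis.

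Sema6a (ENSRNOG00000004033), a close relative of Sema6b, fell in the same early groups and stood at its healthy level in cirrhosis. Its lowest, median and highest levels were 238, 294 and 538 CPM in healthy and 285, 295 and 339.8 CPM in cirrhosis libraries, which overlapped. Acute libraries held 37.7, 49.7, 40, 42.2 and 29 CPM and fibrosis libraries 28.2, 34.5, 42.3, 31.6 and 35.2 CPM, all of them below the healthy and cirrhosis ranges. Against healthy, Sema6a was 8.35-fold lower (log2 fold change -3.06 ± 0.23 SE, limma-voom adjusted p = 2.07e-07) in acute injury, and in cirrhosis the log2 fold change was -0.13 ± 0.19 SE, limma-voom adjusted p = 0.595, so no difference was detected there. Sema6d (ENSRNOG00000004812) went the other way. It ranged over 32.4, 58.4 and 104 CPM (lowest, median, highest) in healthy and 107, 140.2 and 184 CPM in cirrhosis libraries, and held 210.1, 221, 165, 129 and 323 CPM in acute and 189.9, 215, 252, 201 and 158 CPM in fibrosis libraries. No library of the CCl4 groups reached down into the healthy range, and Sema6d was 3.6-fold higher (log2 fold change 1.85 ± 0.30 SE, limma-voom adjusted p = 0.000111) in acute injury and 2.45-fold higher (log2 fold change 1.29 ± 0.24 SE, limma-voom adjusted p = 0.000819) in cirrhosis.

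Secreted class 3 semaphorins split into genes lost early and genes gained. Sema3f (ENSRNOG00000017704), a ligand that acts through neuropilin 2 and repels endothelial cells, had lowest, median and highest levels of 46.7, 154 and 253 CPM in healthy and 96.9, 121 and 170.4 CPM in cirrhosis libraries. In acute libraries it held 3.95, 4.36, 3.22, 3.62 and 3.03 CPM and in fibrosis libraries 5.54, 8.46, 7.28, 5.97 and 6.56 CPM. Both early groups lay far below every healthy library, and cirrhosis libraries lay inside the healthy range. It was 36.5-fold lower (log2 fold change -5.19 ± 0.45 SE, limma-voom adjusted p = 5.86e-07) in acute injury, the largest fall in that comparison among the better expressed genes (mean log2 CPM of 0 or more), and 18.4-fold higher (log2 fold change 4.20 ± 0.19 SE, limma-voom adjusted p = 1.75e-09) in cirrhosis than in fibrosis. RSEM gave some Sema3f counts that were not whole, so a part of its reads also fitted another gene. Sema3g (ENSRNOG00000018952), known in arterial endothelium, held 5.94, 8.32 and 14.4 CPM (lowest, median, highest) in healthy, 0.517, 0.572, 0.667, 1.41 and 0.379 CPM in acute, 0.89, 0.718, 0.732, 0.861 and 0.642 CPM in fibrosis and 14.7, 19.9 and 44.1 CPM in cirrhosis libraries. The cirrhosis libraries lay above every healthy library and the early groups below. Sema3g was 12.9-fold lower (log2 fold change -3.69 ± 0.36 SE, limma-voom adjusted p = 1.78e-06) in acute injury and 2.62-fold higher (log2 fold change 1.39 ± 0.31 SE, limma-voom adjusted p = 0.00268) in cirrhosis. The 7 arterial and capillary endothelial markers summed to 1505 to 4732 CPM in healthy, 91.1 to 178 in acute, 92.8 to 132 in fibrosis and 1737 to 4091 in cirrhosis libraries.

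Sema3a (ENSRNOG00000023337), a neuropilin 1 ligand that collapses growth cones, was close to absent before cirrhosis. It had 1 to 18 counts per healthy library and 1 to 7 per acute library, against 19 to 39 in fibrosis and 206 to 988 in cirrhosis. On the CPM scale cirrhosis libraries held 5.25, 8.88 and 19.6 (lowest, median, highest) and fibrosis libraries 0.574, 0.936, 0.632, 1 and 1.14, above every healthy and acute library. Against healthy, Sema3a reached the count minimum only through the cirrhosis or the fibrosis libraries, so no fold or test is given. Sema3d (ENSRNOG00000007202), another secreted semaphorin, held 0.233, 0.809 and 3.95 CPM (lowest, median, highest) in healthy, 0.98, 2.18, 1.47, 3.78 and 3.06 CPM in acute, 3.79, 7.61, 3.36, 4.56 and 5.54 CPM in fibrosis and 13.3, 18.5 and 32.4 CPM in cirrhosis libraries. The cirrhosis libraries lay above all others, whereas acute and fibrosis libraries overlapped the healthy ones. Sema3d was 5.55-fold higher (log2 fold change 2.47 ± 0.52 SE, limma-voom adjusted p = 0.000927) in fibrosis than in healthy LSECs. In cirrhosis against healthy it reached the count minimum only through the cirrhosis libraries, so no fold or test is given there. The lymphatic marker Ccl21 and 9 of 12 stellate cell and fibroblast markers were also higher in cirrhosis than in healthy libraries. The part of those cells in the levels of Sema3a and Sema3d was not tested.

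Sema3c (ENSRNOG00000006526), a secreted ligand that guides neural crest cells and vessels of the outflow tract, peaked in fibrosis. Healthy libraries held 0.107, 0.585 and 1.94 CPM (lowest, median, highest), acute libraries 3.24, 2.37, 3.92, 9.51 and 7.8 CPM, fibrosis libraries 22.3, 27.2, 14.8, 24 and 13.5 CPM and cirrhosis libraries 1.29, 1.67 and 2.92 CPM. Acute libraries lay above healthy ones and fibrosis libraries above acute ones with no overlap, whereas cirrhosis and healthy libraries overlapped. Against healthy, Sema3c reached the count minimum only through the acute, the fibrosis or the cirrhosis libraries, so no fold or test is given. It was 11.1-fold lower (log2 fold change -3.47 ± 0.30 SE, limma-voom adjusted p = 4.36e-07) in cirrhosis than in fibrosis. Among the remaining semaphorins, Sema4d, which binds Plxnb1, had a mean of 19.8 ± 19.3 CPM (SD, n = 6) in healthy and 1.46 ± 0.728 CPM (SD, n = 5) in acute libraries, and was 9.16-fold lower (log2 fold change -3.20 ± 0.87 SE, limma-voom adjusted p = 0.0048). Healthy replicates 1 and 2 held 48.8 and 39.5 CPM of Sema4d, and the rest 2.61 to 10.6 CPM. A lymphocyte list summed to 13.3 to 191 CPM in healthy and 0.507 to 1.85 CPM in acute libraries. It summed to 3.68 to 28.6 CPM in T1 to T5 and 14.3 to 41.7 CPM in T10 to T15, and the part of such cells was not tested. Sema3e, the ligand of Plxnd1, had 0 to 18 counts per healthy library and 14 to 84 per acute library. It reached the count minimum there only through the acute libraries.

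**Figure D2:**
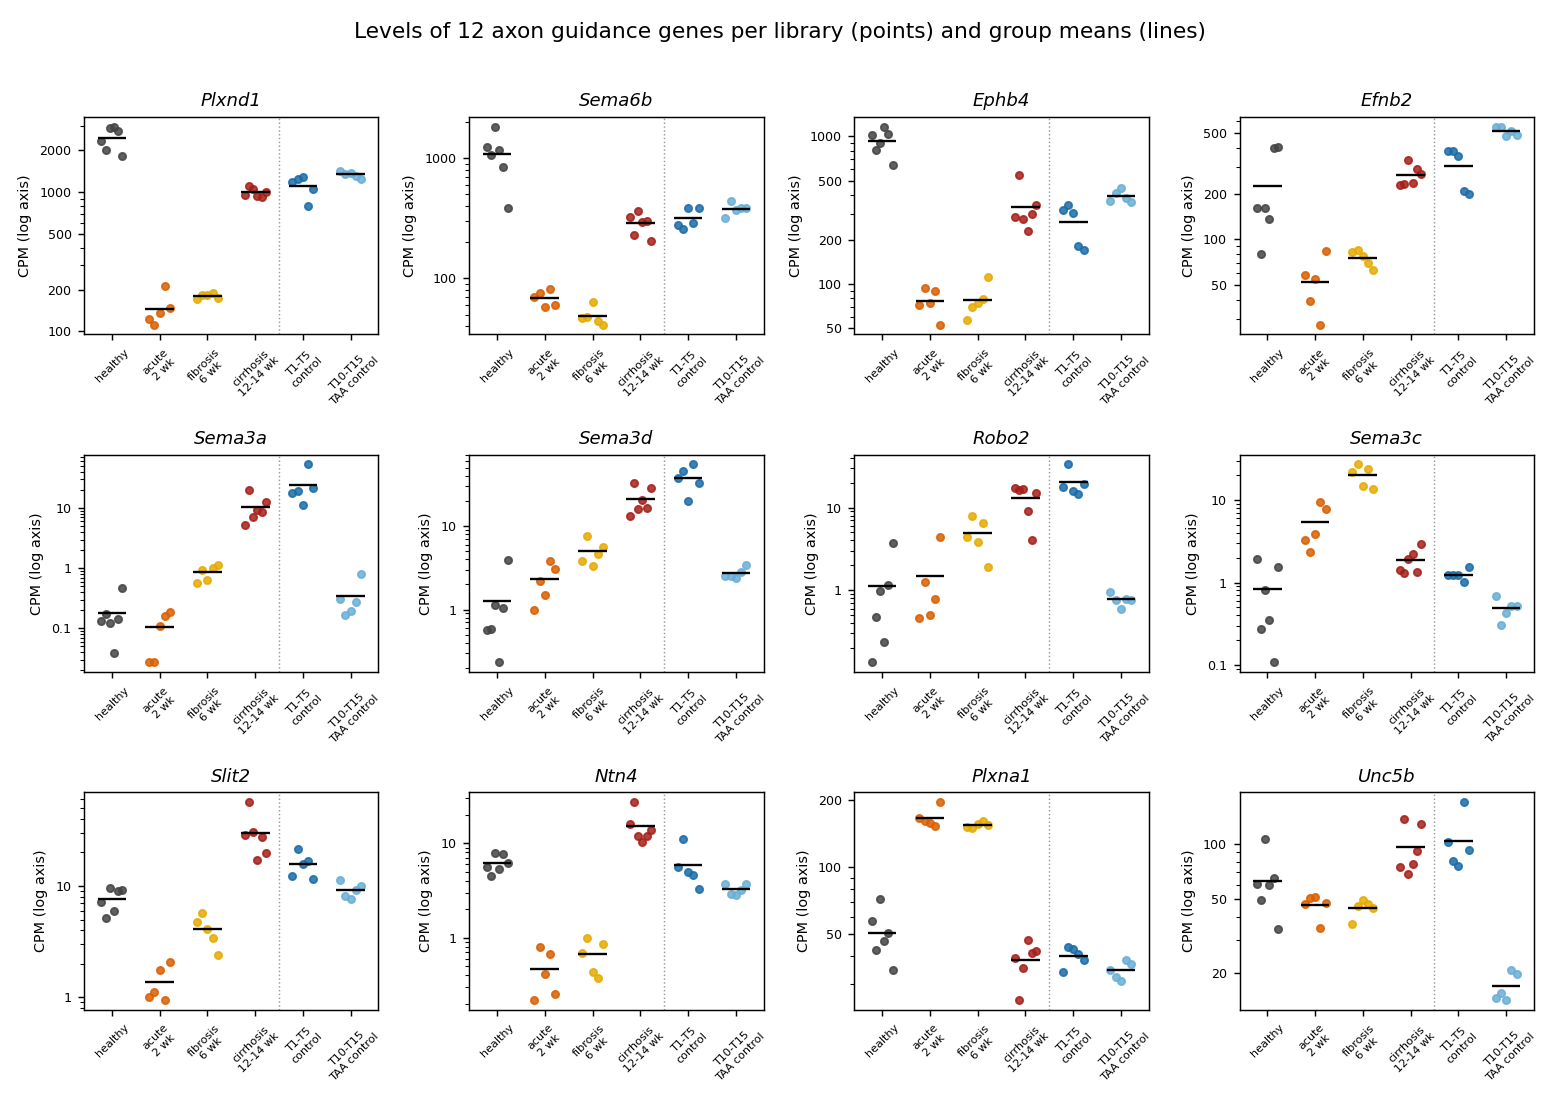
Level (CPM, log axis, a scale of its own in each panel) of 12 axon guidance genes in every library (points) with the group mean (line). Groups left of the dotted line are the CCl4 experiment and right of it the TAA experiment, scaled separately, and the panels show the low early groups of Plxnd1, Sema6b and Ephb4, the high cirrhosis and T1 to T5 libraries of Sema3a, Sema3d and Robo2, and the fibrosis peak of Sema3c.

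Plexins, the semaphorin receptors, mostly fell early. Of the 8 tested 6 were lower and 2 higher in acute injury, 5 lower and 2 higher in fibrosis, and 3 lower and 1 higher in cirrhosis. That is 100%, 87.5% and 50% called, beside 73.4%, 70.2% and 51.8% of all genes, so the cirrhosis share was near that of the transcriptome. Plxnd1 (ENSRNOG00000025209), the endothelial plexin that Sema3e engages, had lowest, median and highest levels of 1820.2, 2549.8 and 2965 CPM in healthy and 921, 984 and 1111 CPM in cirrhosis libraries. The acute libraries held 122, 112, 135, 210.4 and 147 CPM and the fibrosis libraries 172, 181, 182, 188 and 175 CPM. Healthy libraries lay on top and cirrhosis libraries in between with no overlap, and the acute and fibrosis groups overlapped at the bottom. It was 16.8-fold lower (log2 fold change -4.07 ± 0.19 SE, limma-voom adjusted p = 5.26e-09) in acute injury, 12.9-fold lower (log2 fold change -3.69 ± 0.14 SE, limma-voom adjusted p = 2.62e-09) in fibrosis and 2.42-fold lower (log2 fold change -1.28 ± 0.15 SE, limma-voom adjusted p = 9.53e-05) in cirrhosis. From fibrosis to cirrhosis Plxnd1 was 5.55-fold higher (log2 fold change 2.47 ± 0.07 SE, limma-voom adjusted p = 1.13e-10).

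Plxnb2 (ENSRNOG00000007133), a receptor of class 4 semaphorins, held 216, 293 and 446 CPM (lowest, median, highest) in healthy, 123, 135, 103, 154 and 79 CPM in acute, 102, 92.1, 114, 106 and 109 CPM in fibrosis and 138, 179.8 and 201 CPM in cirrhosis libraries. The 3 CCl4 groups lay below every healthy library, by less than for Plxnd1. It was 2.65-fold lower (log2 fold change -1.41 ± 0.22 SE, limma-voom adjusted p = 8.89e-05) in acute injury and 1.81-fold lower (log2 fold change -0.85 ± 0.19 SE, limma-voom adjusted p = 0.00235) in cirrhosis. With scaling by library size the cirrhosis difference had a log2 fold change of -0.51 and was not called.

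A-type plexins are receptors of class 3 semaphorins with neuropilins and of class 6 semaphorins, and 2 of them, Plxna1 and Plxna2, were the plexins that rose in acute injury and fibrosis. Plxna1 (ENSRNOG00000017003) held 34.5, 48.7 and 71.9 CPM (lowest, median, highest) in healthy, 166, 161, 159, 153 and 196 CPM in acute, 151, 151, 157, 162 and 155 CPM in fibrosis and 25.4, 40.2 and 47.1 CPM in cirrhosis libraries. Acute and fibrosis libraries stood above all healthy and cirrhosis libraries, and the latter overlapped each other. Plxna1 was 3.47-fold higher (log2 fold change 1.79 ± 0.18 SE, limma-voom adjusted p = 1.89e-06) in acute injury and 3.3-fold higher (log2 fold change 1.72 ± 0.16 SE, limma-voom adjusted p = 1.79e-06) in fibrosis, and in cirrhosis the log2 fold change was -0.37 ± 0.20 SE, limma-voom adjusted p = 0.119. Plxna2 (ENSRNOG00000007324) followed with 302, 406 and 619.8 CPM in healthy, 816, 1006, 728, 794 and 1046 CPM in acute, 679, 867, 923, 713 and 732 CPM in fibrosis and 301, 413 and 619.5 CPM in cirrhosis libraries. Its early libraries also lay above the healthy ones, and it was 2.13-fold higher (log2 fold change 1.09 ± 0.21 SE, limma-voom adjusted p = 0.00042) in acute injury, with a log2 fold change in cirrhosis of -0.00 ± 0.22 SE, limma-voom adjusted p = 0.997. Plxna3 and Plxna4 fell, with log2 fold changes in acute injury of -1.86 ± 0.34 SE, limma-voom adjusted p = 0.000277 and -2.03 ± 0.39 SE, limma-voom adjusted p = 0.000425. Plxnc1, a receptor of Sema7a, had means of 71.1 ± 41.4 CPM in healthy (SD, n = 6) and 5.55 ± 1.83 CPM in acute libraries (SD, n = 5) and was 11.6-fold lower (log2 fold change -3.54 ± 0.46 SE, limma-voom adjusted p = 2.05e-05). Plxnb1, the Sema4d receptor, was the plexin called higher in cirrhosis. It had means of 3.47 ± 0.863 CPM in healthy (SD, n = 6), 0.816 ± 0.298 CPM in acute (SD, n = 5), 2.16 ± 0.25 CPM in fibrosis (SD, n = 5) and 5.83 ± 1.5 CPM in cirrhosis libraries (SD, n = 6), and was 4.17-fold lower (log2 fold change -2.06 ± 0.33 SE, limma-voom adjusted p = 0.000106) in acute injury and 1.69-fold higher (log2 fold change 0.76 ± 0.26 SE, limma-voom adjusted p = 0.0221) in cirrhosis, where its libraries overlapped the healthy ones.

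Ephrins fell early where they were measured well. Of the 6 tested 4 were lower in acute injury, 4 in fibrosis and 3 in cirrhosis, and the others were not called. That is 66.7%, 66.7% and 50% called, near the 73.4%, 70.2% and 51.8% of all genes called in either direction. Efnb2 (ENSRNOG00000014648), the ligand that marks arterial endothelium, held 80.6, 161 and 406 CPM (lowest, median, highest) in healthy and 228, 251 and 333 CPM in cirrhosis libraries. Acute libraries held 58.2, 39.3, 54.9, 27.4 and 83.6 CPM and fibrosis libraries 82.9, 85.2, 78.1, 69.8 and 63.1 CPM. Most early libraries lay below the healthy range, and some overlapped its low end, while cirrhosis lay within it. Efnb2 was 3.77-fold lower (log2 fold change -1.91 ± 0.43 SE, limma-voom adjusted p = 0.00128) in acute injury and 2.4-fold lower (log2 fold change -1.26 ± 0.37 SE, limma-voom adjusted p = 0.00883) in fibrosis, where scaling by library size left the fibrosis difference uncalled. In cirrhosis the log2 fold change of Efnb2 against healthy was 0.48 ± 0.34 SE, limma-voom adjusted p = 0.237.

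Efnb1 (ENSRNOG00000006877), a transmembrane ephrin of B-type Eph receptors, held 199, 286 and 326 CPM (lowest, median, highest) in healthy, 104, 93.6, 93.8, 138 and 107 CPM in acute, 80.3, 81.9, 97.7, 98.3 and 101 CPM in fibrosis and 99.6, 121 and 183 CPM in cirrhosis libraries. All CCl4 libraries lay below the healthy ones, and Efnb1 was 2.43-fold lower (log2 fold change -1.28 ± 0.17 SE, limma-voom adjusted p = 2.59e-05) in acute injury and 2.04-fold lower (log2 fold change -1.03 ± 0.19 SE, limma-voom adjusted p = 0.000835) in cirrhosis. Efna1 (ENSRNOG00000020573), a lipid-anchored ligand of Epha2 that tumour necrosis factor induces in endothelium, held 115, 156 and 309.7 CPM in healthy, 13.5, 19.5, 16.9, 24.5 and 9.92 CPM in acute, 18.8, 24, 27.2, 24.2 and 24.3 CPM in fibrosis and 71.7, 91.1 and 110.05 CPM in cirrhosis libraries. The early libraries formed the lowest range, and cirrhosis libraries lay between them and healthy. Efna1 was 10.5-fold lower (log2 fold change -3.39 ± 0.29 SE, limma-voom adjusted p = 5.31e-07) in acute injury and 1.94-fold lower (log2 fold change -0.96 ± 0.23 SE, limma-voom adjusted p = 0.00374) in cirrhosis. Efna2 (ENSRNOG00000016203), at 0.479, 1.31 and 4.46 CPM in healthy and 0.218, 0.327, 0.417, 0.138 and 0.316 CPM in acute libraries, lay apart in these groups. In acute injury it reached the count minimum only through the healthy libraries. Its fibrosis libraries held 0.459, 0.312, 0.333, 0.402 and 0.204 CPM and its cirrhosis libraries 0.616, 1.35 and 1.63 CPM.

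Eph receptors, like the ephrins, were mostly lower in the early stages. In acute injury 5 of 6 tested were lower, in fibrosis 5 of 7, and in cirrhosis 3 of 9 lower and 2 higher. That is 83.3%, 71.4% and 55.6% called, beside 73.4%, 70.2% and 51.8% of all genes. The 2 higher in cirrhosis, Ephb1 and Epha3, reached the count minimum only through the cirrhosis libraries and could hardly be called lower. Ephb4 (ENSRNOG00000045952), the Efnb2 receptor that marks venous endothelium, had lowest, median and highest levels of 645, 959 and 1163 CPM in healthy and 229, 291 and 551 CPM in cirrhosis libraries. Acute libraries held 72.6, 93.8, 74.5, 89.3 and 53.2 CPM and fibrosis libraries 57, 70.2, 74.9, 79.4 and 111 CPM. The early groups overlapped each other and lay far below cirrhosis, which lay below healthy with no overlap. Ephb4 was 11.8-fold lower (log2 fold change -3.57 ± 0.19 SE, limma-voom adjusted p = 1.06e-08) in acute injury, 11.4-fold lower (log2 fold change -3.51 ± 0.19 SE, limma-voom adjusted p = 2.03e-08) in fibrosis and 2.87-fold lower (log2 fold change -1.52 ± 0.22 SE, limma-voom adjusted p = 0.000174) in cirrhosis.

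Epha2 (ENSRNOG00000009222), the receptor of Efna1, held 189.98, 367 and 487 CPM (lowest, median, highest) in healthy, 322, 321, 286, 235 and 341 CPM in acute, 187, 214, 194, 222 and 200.04 CPM in fibrosis and 101, 137 and 169.9 CPM in cirrhosis libraries. Acute libraries sat within the healthy range, fibrosis libraries at its low end and cirrhosis libraries below it. Its log2 fold change was -0.21 ± 0.22 SE, limma-voom adjusted p = 0.392 in acute injury, and in cirrhosis it was 2.63-fold lower (log2 fold change -1.40 ± 0.23 SE, limma-voom adjusted p = 0.000352). Scaling by library size left the fibrosis difference of Epha2 uncalled, at a log2 fold change of -0.33, compared with -0.73 ± 0.21 SE, limma-voom adjusted p = 0.00634 under TMM. Epha1 (ENSRNOG00000017525) held 7.53, 8.98 and 11.9 CPM in healthy, 1.69, 1.61, 2.39, 1.45 and 2.4 CPM in acute, 2.09, 1.53, 1.96, 2.32 and 2.3 CPM in fibrosis and 3.57, 5.18 and 7.07 CPM in cirrhosis libraries, all groups below healthy. It was 4.75-fold lower (log2 fold change -2.25 ± 0.22 SE, limma-voom adjusted p = 2.01e-06) in acute injury. Epha4 (ENSRNOG00000013213), which binds ephrins of both classes, held 2.68, 4.24 and 7.96 CPM in healthy, 0.272, 0.109, 0.25, 0.115 and 1.23 CPM in acute, 1.41, 1.37, 1.3, 1.09 and 0.992 CPM in fibrosis and 4.76, 7.11 and 12.3 CPM in cirrhosis libraries. Its early libraries lay below healthy, with 1 acute library well above the other 4. In acute injury Epha4 reached the count minimum only through the healthy libraries.

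Ephb6 (ENSRNOG00000014367), an Eph receptor without kinase activity, held 2.54, 5.18 and 10.3 CPM (lowest, median, highest) in healthy, 0.354, 0.409, 0.361, 0.184 and 0.126 CPM in acute, 2.04, 0.749, 0.399, 0.631 and 0.321 CPM in fibrosis and 1.87, 4.1 and 7.63 CPM in cirrhosis libraries. Acute and fibrosis libraries lay below every healthy one, and cirrhosis libraries overlapped healthy. In acute injury Ephb6 reached the count minimum only through the healthy libraries. It was 7.69-fold lower (log2 fold change -2.94 ± 0.51 SE, limma-voom adjusted p = 0.000248) in fibrosis, and in cirrhosis the log2 fold change was -0.54 ± 0.42 SE, limma-voom adjusted p = 0.288.

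Ephb1 (ENSRNOG00000007865) and Epha3 (ENSRNOG00000030285) were near 0 in most CCl4 libraries before cirrhosis. Ephb1 had 1 to 13 counts per healthy library, 0 to 2 per acute, 0 to 4 per fibrosis and 48 to 249 per cirrhosis library. Epha3 had 1 to 20 counts per healthy and 20 to 71 per cirrhosis library. In the TAA experiment T1 to T5 held 55 to 230 counts of Ephb1 and 17 to 93 of Epha3, and T10 to T15 held 0 to 5 of each. Cirrhosis libraries lay above healthy ones for Ephb1 and touched their range for Epha3. Both genes reached the count minimum only through the groups where they were high, so their counts are given with no fold or test. Epha5, Epha6, Epha7, Epha8 and Epha10, receptors known from the nervous system, stayed below the test's minimum in every comparison, and Epha6 was at 0 in all 32 libraries, which allows up to 3 counts per library.

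**Figure D3:**
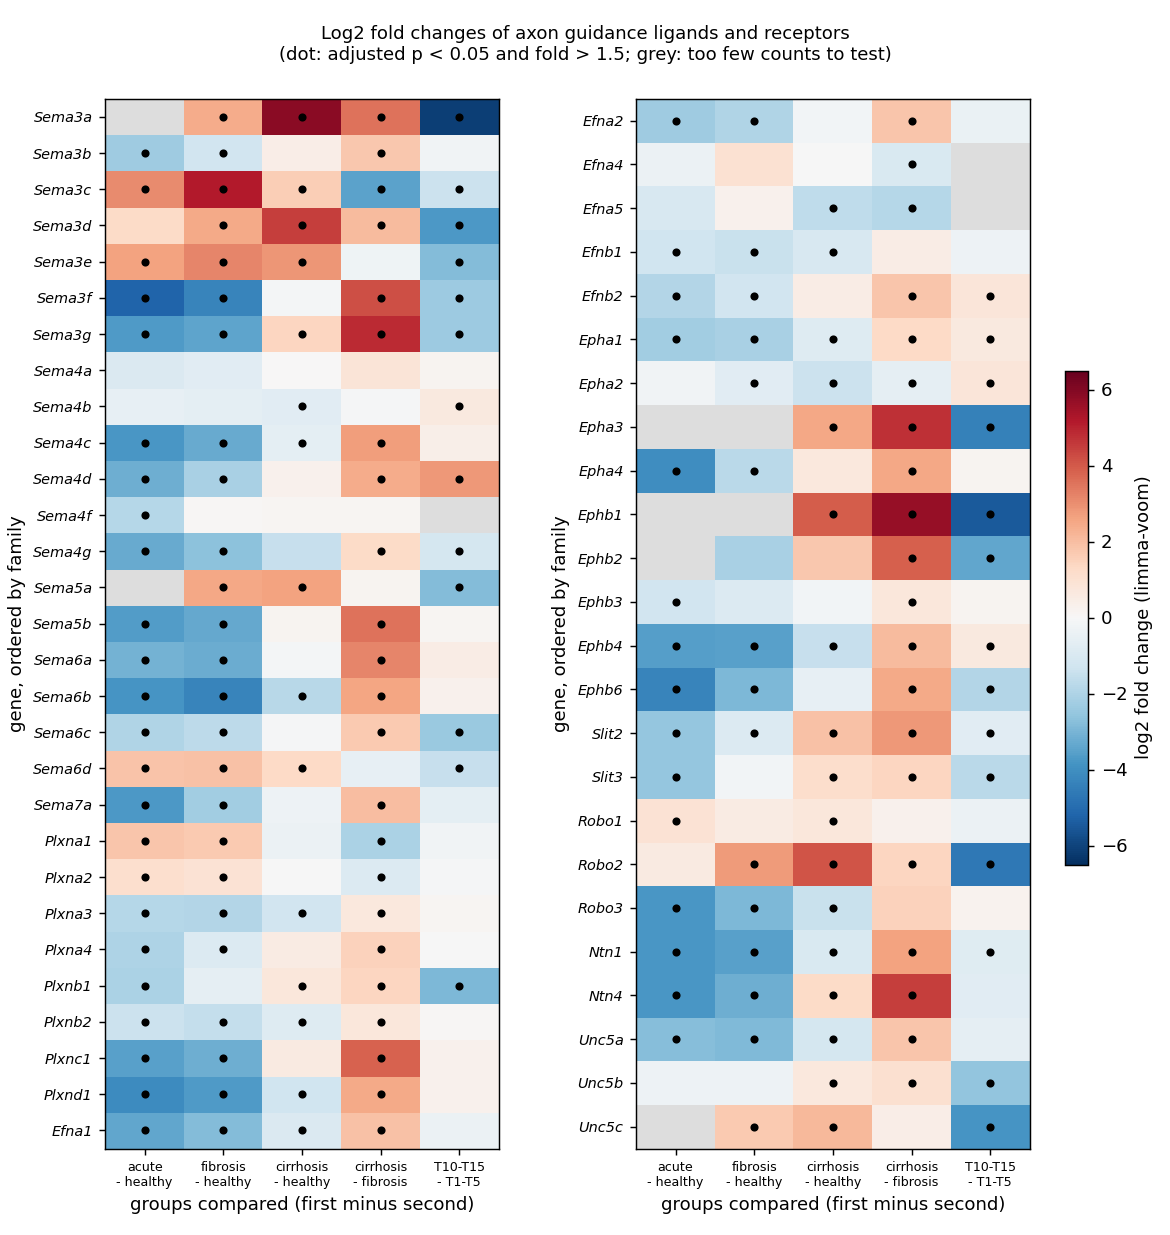
Log2 fold change of every axon guidance gene tested at least once (rows, by family) in 5 comparisons (columns), from blue (lower) to red (higher). Dots mark calls and grey marks too few counts to test, and the first 2 columns are mostly blue, the cirrhosis minus fibrosis column mostly red, and Sema3a, Sema3d, Ephb1 and Robo2 are red in cirrhosis and blue in T10 to T15 minus T1 to T5. Against healthy, these last genes reached the count minimum in cirrhosis only through the cirrhosis libraries. In the TAA comparison Sema3a and Ephb1 reached it only through T1 to T5, so their colours and dots are a description.

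Slits fell in acute injury and were above their healthy level in cirrhosis. Slit2 (ENSRNOG00000003840), a secreted Robo ligand, held 5.2, 8.1 and 9.5 CPM (lowest, median, highest) in healthy, 1.01, 1.12, 1.75, 0.944 and 2.08 CPM in acute, 4.73, 5.68, 4.09, 3.44 and 2.42 CPM in fibrosis and 17.2, 27.9 and 56.5 CPM in cirrhosis libraries. Acute libraries lay lowest, fibrosis libraries touched the low end of healthy, and cirrhosis libraries lay above all others. Slit2 was 5.61-fold lower (log2 fold change -2.49 ± 0.29 SE, limma-voom adjusted p = 7.64e-06) in acute injury, 3.17-fold higher (log2 fold change 1.66 ± 0.30 SE, limma-voom adjusted p = 0.00682) in fibrosis than in acute injury, and 3.72-fold higher (log2 fold change 1.89 ± 0.29 SE, limma-voom adjusted p = 0.000255) in cirrhosis than in healthy LSECs. In fibrosis it was 1.83-fold lower (log2 fold change -0.87 ± 0.25 SE, limma-voom adjusted p = 0.00748), a call lost with scaling by library size. Slit3 (ENSRNOG00000007377) held 0.894, 2.39 and 3.8 CPM in healthy, 0.136, 0.79, 0.222, 0.484 and 0.379 CPM in acute, 1.81, 2.47, 1.36, 2.01 and 1.31 CPM in fibrosis and 2.98, 4.39 and 7.98 CPM in cirrhosis libraries. Its acute libraries lay below healthy, and cirrhosis overlapped healthy. In acute injury Slit3 reached the count minimum only through the healthy libraries. It was 2.25-fold higher (log2 fold change 1.17 ± 0.34 SE, limma-voom adjusted p = 0.0113) in cirrhosis. Slit1 had at most 3 counts in any library.

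Robo receptors each took their own course. Robo1 (ENSRNOG00000029614), the broadly expressed Slit receptor, held 20.5, 45.5 and 77.1 CPM (lowest, median, highest) in healthy, 93.1, 89.8, 70.1, 62.4 and 86.7 CPM in acute, 52.3, 58.7, 84.1, 59.5 and 44 CPM in fibrosis and 58.4, 66.8 and 95.1 CPM in cirrhosis libraries. The groups overlapped throughout, with acute libraries toward the top. Robo1 was 1.91-fold higher (log2 fold change 0.93 ± 0.31 SE, limma-voom adjusted p = 0.0153) in acute injury, and in cirrhosis the log2 fold change was 0.74 ± 0.29 SE, limma-voom adjusted p = 0.0413. The cirrhosis call was lost with edgeR, with DESeq2, without the low-count filter and when any of 7 single libraries was left out (cirrhosis replicates 1, 3, 4 or 6, or healthy replicates 1, 2 or 4), where the log2 fold change was 0.53 to 0.76. With only healthy replicates 3 and 5 it was 0.24 in cirrhosis and 0.57 in acute injury, and neither was called.

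Robo2 (ENSRNOG00000029598), known mainly from neurons, held 0.134, 0.731 and 3.77 CPM (lowest, median, highest) in healthy, 0.463, 1.25, 0.5, 0.783 and 4.45 CPM in acute, 4.42, 7.96, 3.86, 6.43 and 1.9 CPM in fibrosis and 4.02, 15.5 and 17.1 CPM in cirrhosis libraries. Every cirrhosis library lay above every healthy one, and 1 acute library lay with the fibrosis libraries. Against healthy, Robo2 reached the count minimum only through the cirrhosis or the fibrosis libraries, so no fold or test is given. Between fibrosis and acute injury it was 4.69-fold higher (log2 fold change 2.23 ± 0.59 SE, limma-voom adjusted p = 0.0251), a call lost with edgeR, in 1 fit over all CCl4 libraries and without acute replicate 1, 2, 3 or 4 or fibrosis replicate 16 (log2 fold changes of 1.96 to 2.31 without these). In cirrhosis against fibrosis it was 2.62-fold higher (log2 fold change 1.39 ± 0.50 SE, limma-voom adjusted p = 0.0232), and without fibrosis replicate 17 the log2 fold change was 1.07 and no longer called. Robo3 (ENSRNOG00000030016), a divergent Robo, held 6.15, 8.21 and 15.6 CPM in healthy, 0.708, 0.545, 0.667, 0.346 and 1.01 CPM in acute, 0.775, 0.687, 2, 1.58 and 1.08 CPM in fibrosis and 1.56, 2.24 and 11.2 CPM in cirrhosis libraries. Acute and fibrosis lay below healthy, and cirrhosis spread across both. It was 13.9-fold lower (log2 fold change -3.80 ± 0.36 SE, limma-voom adjusted p = 1.22e-06) in acute injury and 2.68-fold lower (log2 fold change -1.42 ± 0.46 SE, limma-voom adjusted p = 0.0178) in cirrhosis, where edgeR, DESeq2 and scaling by library size made no call. The rule also covered Robo4, but no gene in the count tables had that symbol.

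The netrins tested were lower in acute injury. Ntn1 (ENSRNOG00000003947), the classical secreted netrin, held 43.4, 62.5 and 102 CPM (lowest, median, highest) in healthy, 4.49, 3.16, 5.45, 4.75 and 5.97 CPM in acute, 6.26, 6.3, 5.59, 4.99 and 3.88 CPM in fibrosis and 26.9, 31.1 and 44.3 CPM in cirrhosis libraries. The early groups lay far below the others, and the highest cirrhosis library overlapped the healthy range. Ntn1 was 13.6-fold lower (log2 fold change -3.76 ± 0.26 SE, limma-voom adjusted p = 8.37e-08) in acute injury and 1.99-fold lower (log2 fold change -0.99 ± 0.21 SE, limma-voom adjusted p = 0.00163) in cirrhosis. Ntn4 (ENSRNOG00000005573), a netrin of basement membranes that binds laminin, held 4.45, 5.87 and 7.82 CPM in healthy, 0.218, 0.79, 0.417, 0.668 and 0.253 CPM in acute, 0.689, 0.999, 0.432, 0.373 and 0.846 CPM in fibrosis and 10.3, 13 and 27.2 CPM in cirrhosis libraries. Its cirrhosis libraries lay above all healthy ones. In acute injury Ntn4 reached the count minimum only through the healthy libraries. It was 22.6-fold higher (log2 fold change 4.50 ± 0.52 SE, limma-voom adjusted p = 6.84e-06) in cirrhosis than in fibrosis and 2.39-fold higher (log2 fold change 1.26 ± 0.26 SE, limma-voom adjusted p = 0.0014) in cirrhosis than in healthy. Ntn3 and Ntn5 had at most 9 and 6 counts in any library.

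Unc5 receptors, which transmit repulsion by netrins, differed among themselves. Unc5b (ENSRNOG00000000567), the endothelial member, held 34.3, 60.2 and 106 CPM (lowest, median, highest) in healthy, 47.3, 50.5, 51.1, 34.9 and 47.7 CPM in acute, 36.6, 46.1, 49.6, 46.8 and 45.1 CPM in fibrosis and 68.8, 84.4 and 136 CPM in cirrhosis libraries. Groups overlapped healthy throughout, and cirrhosis lay above the early groups. Its log2 fold change was -0.33 ± 0.24 SE, limma-voom adjusted p = 0.218 in acute injury and 0.66 ± 0.26 SE, limma-voom adjusted p = 0.0439 in cirrhosis. The latter call was lost with edgeR, with a replicate block and when any of 8 single libraries was left out (cirrhosis replicates 2, 5 or 6, or healthy replicates 1, 2, 4, 5 or 6), where it was 0.49 to 0.67. With only healthy replicates 3 and 5 it was 0.17. From fibrosis to cirrhosis Unc5b was 2.07-fold higher (log2 fold change 1.05 ± 0.18 SE, limma-voom adjusted p = 0.000188).

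Unc5a (ENSRNOG00000059840) held 3.8, 11.6 and 16.9 CPM (lowest, median, highest) in healthy, 2.29, 1.25, 1.53, 0.806 and 1.96 CPM in acute, 1.49, 1.28, 1.7, 1.29 and 0.904 CPM in fibrosis and 3.03, 4.67 and 7.38 CPM in cirrhosis libraries. Early libraries lay below all healthy ones, and cirrhosis libraries overlapped the low end of healthy. It was 6.76-fold lower (log2 fold change -2.76 ± 0.45 SE, limma-voom adjusted p = 0.00013) in acute injury. Unc5c (ENSRNOG00000029071) was low throughout, with 0.0358, 0.15 and 1.19 CPM in healthy, 0.109, 0.0817, 0.111, 0.0921 and 0.221 CPM in acute, 0.689, 0.936, 0.765, 1 and 0.146 CPM in fibrosis and 0.4, 0.848 and 1.65 CPM in cirrhosis libraries. The healthy range covered nearly all other libraries, and 1 healthy library made up most of it. In cirrhosis Unc5c reached the count minimum only through the cirrhosis libraries, so no fold or test is given. The call there was lost with edgeR and with only healthy replicates 3 and 5. In fibrosis the call (1.72 ± 0.72 SE, limma-voom adjusted p = 0.0447) was lost with edgeR, with DESeq2, without the low-count filter, with only healthy replicates 3 and 5 and without any 1 of healthy replicates 1, 2, 4, 5 and 6 or fibrosis replicates 12, 13, 15 and 16, where the log2 fold change was 1.27 to 1.82.

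Partner genes of these pathways, a list of 50 co-receptors, adaptors and effectors, did not lean one way early. In acute injury 15 of 46 tested were higher and 14 lower, in fibrosis 18 and 13 of 46, and in cirrhosis 14 and 5 of 48. Of all genes 35.5% were higher and 37.9% lower in acute injury, 35.3% and 34.9% in fibrosis, and 27.1% and 24.7% in cirrhosis. The lack of an early lean was thus shared with the transcriptome. The largest rises in acute injury were Rock2, a cytoskeletal kinase downstream of plexins and Eph receptors (4.30 ± 0.48 SE, limma-voom adjusted p = 5.38e-06), Met, the hepatocyte growth factor receptor that couples to B-type plexins (3.78 ± 0.40 SE, limma-voom adjusted p = 3.1e-06), and Rock1 (2.42 ± 0.52 SE, limma-voom adjusted p = 0.00105). The largest falls were Fes, a kinase of plexin signalling (-3.43 ± 0.25 SE, limma-voom adjusted p = 1.35e-07), Ptk7 (-3.37 ± 0.71 SE, limma-voom adjusted p = 0.000895) and Mical1, an oxidase that takes actin filaments apart below plexins (-3.12 ± 0.34 SE, limma-voom adjusted p = 4.03e-06), all given as log2 fold changes. The neuropilins, co-receptors of the class 3 semaphorins, were among the steadier genes. Nrp1 averaged 346 CPM in healthy, 362 in acute, 324 in fibrosis and 429 in cirrhosis libraries, and Nrp2 722, 436, 430.4 and 730.3 CPM. Dcc, the attractive netrin receptor, was at 0 in 31 of 32 libraries. Neo1, the other attractive one, was lower in cirrhosis (log2 fold change -1.14 ± 0.19 SE, limma-voom adjusted p = 0.000396). Abl1 was listed under 2 gene identifiers and is uncertain. The Schwann cell and nerve list summed to 13.4 to 83.8 CPM in healthy, 76.1 to 138 in acute, 70.1 to 112 in fibrosis and 16.3 to 23.4 in cirrhosis libraries. Most of these sums was Tubb3, a neuronal tubulin (means of 39.9, 103, 87.5 and 15.6 CPM), whereas Sox10, a defining Schwann cell gene, was at most 0.0597 CPM in any library, and 2 of the 3 genes tested were higher in acute injury and in fibrosis. The part of such cells was not tested.

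In the TAA experiment 21 of 50 axon guidance genes were lower and 6 higher in T10 to T15 than in T1 to T5, or 54.0%, beside 27.6% of all genes (14.9% lower and 12.7% higher). Libraries of both groups lay apart for 28 of these 50 (35.4% of all genes). Semaphorins gave 10 of the lower and 2 of the higher calls, and Eph receptors 4 and 3. The remaining lower calls were 1 plexin, 2 Slits, 1 Robo receptor, 1 netrin and 2 Unc5 receptors, and the remaining higher call was 1 ephrin. Sema3a held 17.8, 19, 11.4, 53.1 and 21.9 CPM in T1 to T5 and 0.306, 0.167, 0.198, 0.277 and 0.797 CPM in T10 to T15. These groups lay far apart. Sema3a reached the count minimum here only through T1 to T5, so no fold or test is given. Robo2 held 17.8, 33.3, 15.9, 14.8 and 19.1 CPM in T1 to T5 and 0.951, 0.768, 0.593, 0.79 and 0.758 CPM in T10 to T15, again with no overlap, and was 24.8-fold lower (log2 fold change -4.63 ± 0.44 SE, limma-voom adjusted p = 2.96e-05).

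Sema3d (37.2, 45.9, 19.8, 54.5 and 32.3 CPM in T1 to T5, 2.51, 2.5, 2.37, 2.81 and 3.43 CPM in T10 to T15) was 13.3-fold lower (log2 fold change -3.73 ± 0.39 SE, limma-voom adjusted p = 5.41e-05). Unc5b, whose groups in the CCl4 experiment overlapped, held 102, 80.1, 75.9, 168 and 92.6 CPM in T1 to T5 and 14.5, 15.5, 14.2, 20.7 and 19.5 CPM in T10 to T15. Here its groups did not overlap, and T10 to T15 was 5.99-fold lower (log2 fold change -2.58 ± 0.22 SE, limma-voom adjusted p = 1.77e-05). Sema3f was 5.11-fold lower (log2 fold change -2.35 ± 0.10 SE, limma-voom adjusted p = 3.52e-07), with 161, 125, 127, 156 and 125 CPM in T1 to T5 and 23.5, 29, 28.2, 26.9 and 27.3 CPM in T10 to T15. In the other direction Sema4d held 1.16, 2.45, 5.41, 1.13 and 2.98 CPM in T1 to T5 and 8.63, 12.4, 20.8, 22.5 and 21.2 CPM in T10 to T15 and was 7.11-fold higher (log2 fold change 2.83 ± 0.48 SE, limma-voom adjusted p = 0.000786). Efnb2, with 383, 383, 357, 208 and 200.2 CPM in T1 to T5 and 554, 550.03, 479.98, 515 and 487 CPM in T10 to T15, was 1.75-fold higher (log2 fold change 0.81 ± 0.20 SE, limma-voom adjusted p = 0.00592), and Epha2, with 109.9, 137, 112, 74.6 and 78 CPM and 164, 201, 184, 159 and 158 CPM, was 1.73-fold higher (log2 fold change 0.79 ± 0.16 SE, limma-voom adjusted p = 0.00242). For these 3 genes T10 to T15 lay above T1 to T5 in all libraries. Plxnd1, Plxna2 and Plxnb2 had log2 fold changes of 0.29, -0.06 and 0.07 and were not called. The calls of Ephb4 (log2 fold change 0.64 ± 0.20 SE, limma-voom adjusted p = 0.0215) and Epha1 (0.64 ± 0.16 SE, limma-voom adjusted p = 0.00721) were lost under some alternatives, Ephb4 with edgeR (0.58), with DESeq2 (0.56) and without T4 (0.51) or T5 (0.49), and Epha1 without T1 (0.51) or T13 (0.58).

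No library is shared between cirrhosis against healthy and the TAA comparison. Of the 17 axon guidance genes higher in CCl4 cirrhosis, 15 were higher in T1 to T5 than in T10 to T15, and the other 2 (Ntn4 and Robo1) were not called. That is 88.2%, beside 25.4% of all 3845 genes higher in cirrhosis and tested in both. Of the 17, 9 reached the count minimum only through the cirrhosis libraries. Of the 21 axon guidance genes lower in T10 to T15, 9 reached it only through T1 to T5. Such genes could hardly be called the other way, so these shares are a description and carry no test. Of the 14 genes lower in cirrhosis and tested in both, 1 was higher and 4 were lower in T1 to T5 than in T10 to T15, or 7.14% and 28.6%, beside 2.77% and 17.4% of all 3573 genes lower in cirrhosis. The 15 included Sema3a, Sema3c, Sema3d, Sema3e, Sema3g, Robo2, Slit2 and Slit3. The groups differ in the same way in the stellate and lymphatic markers given above, and the part of those cells was not tested.

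**Figure D4:**
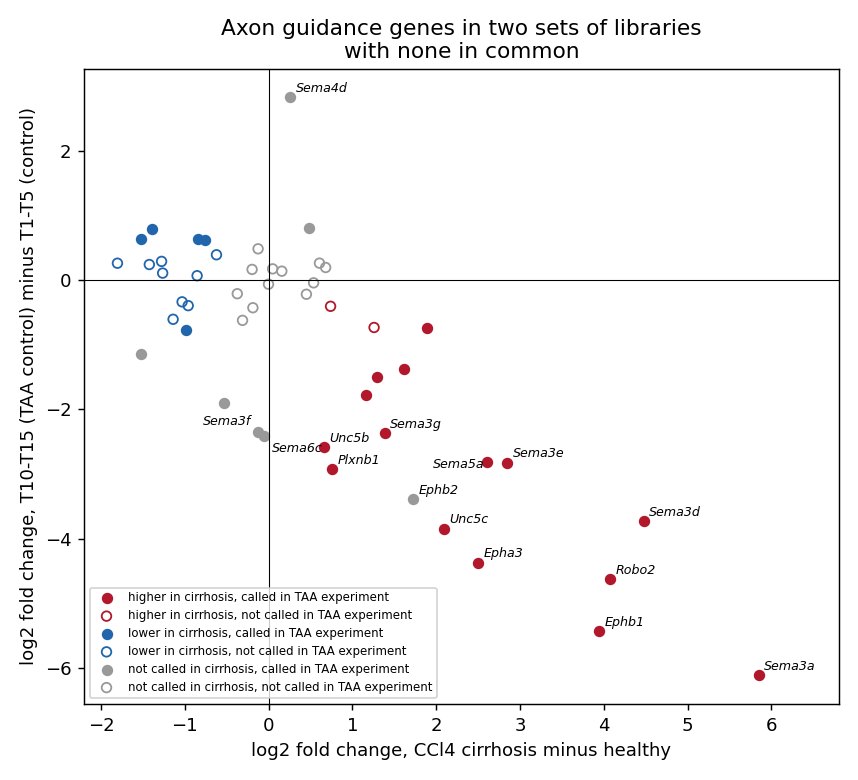
Log2 fold change of each axon guidance gene in CCl4 cirrhosis minus healthy (horizontal axis) against T10 to T15 minus T1 to T5 of the TAA experiment (vertical axis), coloured by the call in cirrhosis and filled where the TAA comparison was called. Of the 17 genes higher in cirrhosis (red) 15 are filled and lie below 0, from Slit2 nearest to 0 on the vertical axis to Sema3a at the far lower right. Of the 17, 9 reached the count minimum only through the cirrhosis libraries, so the figure is a description.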

How the data were processed

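RNA of LSECs was sequenced in 32 libraries, 22 of the CCl4 and 10 of the TAA experiment. The authors trimmed reads with Trim Galore, mapped them to Rnor_6.0 with STAR and estimated gene counts with RSEM, per the labels and the study's methods. They deposited the RSEM expected counts of each library, 32623 genes in all, without normalization. RSEM divides reads that fit several genes, and 4 axon guidance genes (Epha1, Ephb2, Plxnb1 and Sema3f) had counts that were not whole.

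Expected counts were rounded. limma-voom with TMM factors and filterByExpr was fitted to each pair of groups alone (R 4.3.3, limma 3.58.1, edgeR 4.0.16), as the study's methods name TMM and limma, and tested on simulated data. Genes were called at a Benjamini-Hochberg adjusted p under 0.05 over all genes tested and a fold above 1.5, whereas the study's threshold used unadjusted p. All tests were two-sided. Of the 65 genes 12 had too few counts to be tested in any comparison: Efna3, Efnb3, Epha5, Epha6, Epha7, Epha8, Epha10, Ntn3, Ntn5, Plxnb3, Slit1 and Unc5d, with at most 26 counts in a library. Totals of 25646501 to 46464271 counts make 1 read worth 0.0199 to 0.041 CPM.

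Groups came from the labels, and the 12 to 14 weeks of cirrhosis from the study's design. Genes given by library were the up to 4 members of each family with the highest group mean CPM among those tested, and those called with the 3 largest rises or falls in a comparison at a mean log2 CPM of at least 0. Plxnb1, Sema3e, Ephb1, Epha3 and other genes named beside these were added after their values were seen. The genes, the partner list and the marker lists were chosen with earlier results of these data known. Replicate numbers shared by groups did not pair the samples, which are different rats. Plots were made in matplotlib 3.10.9 under Python 3.11.15. Alternatives included DESeq2 1.42.0, other scaling, no low-count filter, a replicate block and each library left out.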

Additional observations from a re-analysis of the deposited data

Results flagged for a closer look

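In 13 of 156 groups of 5 or 6 libraries (26 genes in 6 groups) the highest or lowest library lay further from the others than Dixon's 95% criterion allows, where chance flags about 1 in 20 groups, or 7.8 here. Cirrhosis replicate 2 was high for 4 genes: Ephb4 at 551 CPM against 229 to 342 in the others, Slit2 at 56.5 against 17.2 to 30.5, Ntn1 at 44.3 against 26.9 to 31.95, and Ntn4 at 27.2 against 10.3 to 15.9. Acute replicate 8 was high for Epha4 (1.23 CPM against 0.109 to 0.272), Robo2 (4.45 against 0.463 to 1.25) and Unc5c (0.221 against 0.0817 to 0.111). Robo2 was also high in healthy replicate 6 (3.77 CPM against 0.134 to 1.14) and in T2 (33.3 against 14.8 to 19.1). Unc5b was high in T4 (168 CPM against 75.9 to 102) and low in acute replicate 4 (34.9 against 47.3 to 51.1). Unc5c was high in cirrhosis replicate 3 (1.65 CPM against 0.4 to 0.865) and in healthy replicate 3 (1.19 against 0.0358 to 0.272).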

How the results depend on the processing

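Among the alternatives run, no count of calls changed by more than 1.5 times apart from fibrosis against acute injury, where 2 genes were lower with no fold threshold (0 with it) and 9 were higher in 1 fit over all CCl4 libraries (14 otherwise). Leaving out 1 library gave 6 to 7 higher and 32 to 37 lower in acute injury, 9 to 10 and 28 to 33 in fibrosis, 14 to 18 and 13 to 16 in cirrhosis, 36 to 38 and 4 to 6 from fibrosis to cirrhosis, 10 to 17 higher from acute injury to fibrosis, and 5 to 7 and 21 to 22 in the TAA experiment. With only healthy replicates 3 and 5, those with the lowest hepatocyte marker sums and chosen after seeing the data, 5 genes were higher and 31 lower in acute injury, 8 and 29 in fibrosis, and 12 and 14 in cirrhosis. Samples with the same replicate number did not deviate together (correlations 0.037 to 0.114 in acute injury and -0.154 to 0.219 in cirrhosis), so the numbers do not pair them, and a replicate block gave 7 higher and 36 lower in acute injury and 18 and 15 in cirrhosis. T14 and T15 were closer to each other than other pairs (chi-square per degree of freedom of 3.05), and their sum as 1 library gave 6 higher and 21 lower. Of 166 fold changes of named genes 128 kept their call under every alternative run, 20 lost it under some, 18 gained it under some and 0 changed sign with a call.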
